A study of Mus musculus with 96 samples.

Results

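The genes described here are 10 markers of neurons of the hippocampal subfields. They were taken by symbol from the count tables, and all 10 were found among 32594 rows. Prox1, Dsp, C1ql2, Calb1 and Lct mark granule cells of the dentate gyrus, Wfs1, Fibcd1 and Spink8 mark pyramidal cells of CA1, Bok marks pyramidal cells of CA3, and Pvalb marks a class of fast-spiking interneurons.

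The libraries came from male C57BL/6 mice, 8 to 10 weeks old, whose hippocampus, thalamus and hypothalamus were dissected 3 or 29 days after surgery (dpi). Injured mice (TBI) received a controlled cortical impact, which is delivered by an impactor tip to cortex overlying the hippocampus, and sham mice received isoflurane and a scalp incision with no craniectomy. The TBI and Sham groups therefore differ in the opening of the skull as well as in the impact. Mice of the CD groups received candesartan, an angiotensin receptor blocker, at 0.1 mg/kg/day, and mice of the VH groups received the saline and sodium carbonate vehicle. The first dose was injected 6 h after surgery. It was followed by injections at 24 and 48 h in the 3 dpi cohort, and by an osmotic pump implanted at 24 h in the 29 dpi cohort. The 4 groups were thus Sham + VH and Sham + CD, and with injury TBI + VH and TBI + CD, with 4 libraries each in every region at each time, 96 libraries in all and 32 of hippocampus. Nothing in the sources says which libraries of different regions share a mouse, and p-values measure the spread between these libraries.

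The hippocampus is a relay of separate neuron populations. Granule cells of the dentate gyrus receive the input from entorhinal cortex and send mossy fibres to CA3, whose pyramidal cells project in turn to CA1. Prox1, a homeobox transcription factor, sets and keeps granule cell identity. Dsp encodes desmoplakin, a linker of cell junctions to intermediate filaments, C1ql2 a secreted synaptic organiser of the C1q family, Calb1 the calcium buffer calbindin, and Lct the disaccharidase lactase. Wfs1 encodes wolframin, a membrane protein of the endoplasmic reticulum, Fibcd1 a receptor with a fibrinogen-like domain, Spink8 a serine protease inhibitor of the Kazal family, Bok a member of the BCL2 family of cell death regulators, and Pvalb the calcium buffer parvalbumin.

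The start regions of 4 granule cell markers are shown because these genes varied together among the hippocampal libraries or share the cell type. Each runs from 250 bases before to 50 bases after a RefSeq start (GRCm38.p6), on the strand of the gene, with every CANNTG (the E-box, which basic helix-loop-helix factors of the neuronal lineage can bind) in capitals. RefSeq promoters were found for 8 of the 10 genes, and Prox1 has a second one there, chr1:190169466-190169765, which held no CANNTG.
Prox1: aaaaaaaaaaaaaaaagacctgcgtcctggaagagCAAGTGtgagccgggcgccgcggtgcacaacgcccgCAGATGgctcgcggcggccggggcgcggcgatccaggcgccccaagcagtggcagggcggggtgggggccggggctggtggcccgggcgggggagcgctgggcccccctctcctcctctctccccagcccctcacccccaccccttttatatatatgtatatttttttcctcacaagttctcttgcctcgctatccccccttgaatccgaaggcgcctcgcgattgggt
Dsp: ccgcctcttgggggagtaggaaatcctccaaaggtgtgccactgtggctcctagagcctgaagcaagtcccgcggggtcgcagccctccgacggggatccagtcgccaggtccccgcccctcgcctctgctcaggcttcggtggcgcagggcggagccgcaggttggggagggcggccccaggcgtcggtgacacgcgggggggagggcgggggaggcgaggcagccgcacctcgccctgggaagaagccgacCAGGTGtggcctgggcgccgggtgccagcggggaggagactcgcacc
Lct: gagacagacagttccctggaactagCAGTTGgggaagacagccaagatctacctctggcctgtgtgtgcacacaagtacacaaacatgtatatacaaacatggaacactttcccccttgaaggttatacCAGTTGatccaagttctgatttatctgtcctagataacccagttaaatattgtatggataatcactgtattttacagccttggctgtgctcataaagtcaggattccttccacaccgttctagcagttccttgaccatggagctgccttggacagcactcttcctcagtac
C1ql2: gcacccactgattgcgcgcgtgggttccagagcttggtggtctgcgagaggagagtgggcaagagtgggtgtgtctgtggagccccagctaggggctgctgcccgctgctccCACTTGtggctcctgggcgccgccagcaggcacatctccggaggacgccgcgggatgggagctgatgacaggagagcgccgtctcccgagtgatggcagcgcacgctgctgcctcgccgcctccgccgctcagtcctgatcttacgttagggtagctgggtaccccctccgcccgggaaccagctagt
The Prox1 window shown, chr1:190170778-190171077 on the minus strand, held CANNTG at 215 and at 179 bases before the start. The Dsp window, chr13:38151044-38151343 on the plus strand, held it once, from base 4 after the start. The Lct window, chr1:128328269-128328568 on the minus strand, held it at 225 and at 121 bases before the start, and the C1ql2 window, chr1:120340332-120340631 on the plus strand, at 138 bases before the start. CANNTG reads the same on both strands, and 72.3% of 32851 RefSeq promoters of 300 bases held at least 1. It was therefore a common word, and its presence in these windows describes the sequence only.

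The hippocampal level of the markers was compared per length, as RPKM (counts scaled for library size and exon length) in the Sham + VH libraries at 3 dpi (n = 4). Gene positions are those of GENCODE vM21 on GRCm38, in which antisense genes overlap Prox1 (Prox1os and Gm28172) and a gene on the opposite strand overlaps the start of Dsp (Gm10129). The library kit marks strand, but whether the counting used it is not given in the sources used here, so reads of these overlaps may be shared. Fibcd1, which lies at chr2:31813290-31846005, had the highest level, 50.9 ± 5.48 RPKM (SD). It was followed by Wfs1 (chr5:36966104-36989205) at 35.5 ± 5.59 and C1ql2 (chr1:120340582-120343174) at 35.1 ± 4.16 RPKM. The libraries of Wfs1 and C1ql2 overlapped, and those of Fibcd1 lay above both. Next came Pvalb (chr15:78191114-78206400) at 25.2 ± 1.17, Bok (chr1:93685660-93695764) at 24.5 ± 4.29, Calb1 (chr4:15881264-15908064) at 24.1 ± 2.53 and Spink8 (chr9:109812280-109826633) at 22.3 ± 3.13 RPKM. Each of these 4 overlapped its neighbour in the order. Lct (chr1:128284756-128328318) stood at 9.12 ± 2.33, Dsp (chr13:38151294-38198577) at 5.35 ± 1.11 and Prox1 (chr1:190118035-190170714) at 4.95 ± 0.957 RPKM. These 3 overlapped each other in turn and lay below the others, so the granule cell markers took both a high place (C1ql2) and the lowest places in the order.

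The first comparison asked whether the markers set the hippocampus apart from the other regions dissected from these mice. Levels are CPM (counts scaled for library size), on a scale set over the libraries of the 3 regions. A gene was called where its FDR by edgeR's quasi-likelihood test was below 0.05 and its log2 fold change exceeded 0.32 in either direction. In Sham + VH at 3 dpi, 7 of the 10 markers differed between hippocampus and thalamus, where 40.9% of all genes tested differed. Of the 7, 6 were higher in hippocampus (19.4% of all genes were) and 1 lower (21.5%). All 10 differed between hippocampus and hypothalamus, where 46.7% of all genes differed, with 9 higher in hippocampus (23.2%) and 1 lower (23.5%).

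Lct, Spink8 and Dsp gave the widest separations. Dsp measured 46.9, 58.6, 70.1 and 45.0 CPM in the 4 hippocampal libraries, against 1.28, 1.501, 1.82 and 1.20 CPM in thalamus and 1.27, 1.57, 2.01 and 0.822 CPM in hypothalamus. Every hippocampal library lay far above every library of the other regions, with a log2 fold change of 5.25 ± 0.27 (SE, FDR = 1.97e-20 by edgeR) against thalamus and 5.27 ± 0.26 against hypothalamus. Lct measured 46.0, 78.0, 74.2 and 51.0 CPM in hippocampus and at most 0.154 CPM in thalamus and 0.246 CPM in hypothalamus. These low values rest on 0 to 7 reads per library. Spink8, with 16.2 to 22.9 CPM in hippocampus, measured at most 0.166 CPM in thalamus and 0.211 CPM in hypothalamus. Fibcd1 followed with a log2 fold change of 3.35 ± 0.25 against thalamus and 4.44 ± 0.27 against hypothalamus.

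C1ql2 and Wfs1 were higher in hippocampus by smaller steps. The log2 fold change of C1ql2 was 2.64 ± 0.24 against thalamus and 2.17 ± 0.23 against hypothalamus, and that of Wfs1 0.91 ± 0.13 and 0.38 ± 0.13. The call of Wfs1 against hypothalamus rested on the library Sham + VH replicate 2, without which its value was 0.30 ± 0.14 with FDR = 0.0605 by edgeR. Calb1 went the other way, since it measured 116, 112, 141 and 129 CPM in hippocampus against 208, 210.1, 170.5 and 214 CPM in thalamus. Its log2 fold change was −0.69 ± 0.11 against thalamus and −0.55 ± 0.11 against hypothalamus, so the calbindin gene was lower in the region where it is used as a granule cell marker.

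Prox1, Bok and Pvalb separated hippocampus from hypothalamus only. Prox1 measured 38.5, 52.2, 51.3 and 35.2 CPM in hippocampus and 41.1, 59.9, 41.7 and 42.8 CPM in thalamus, which overlapped (log2 fold change −0.07 ± 0.17, FDR = 0.753 by edgeR). Against hypothalamus it was higher by 1.39 ± 0.17. Bok had a log2 fold change of −0.08 ± 0.16 against thalamus and 2.25 ± 0.18 against hypothalamus. Pvalb ranged from 9.84 to 75.3 CPM among the thalamic libraries, which contained the narrow hippocampal range of 26.6 to 29.4 CPM. Without the thalamic library at 9.84 CPM, Sham + VH replicate 4, Pvalb was called lower in hippocampus (−0.94 ± 0.26, FDR = 0.00261 by edgeR). Prox1, Bok, Pvalb and Calb1 thus were not called higher in hippocampus than in thalamus, whereas Dsp, Lct, Spink8, Fibcd1, C1ql2 and Wfs1 were.

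**Figure D1:**
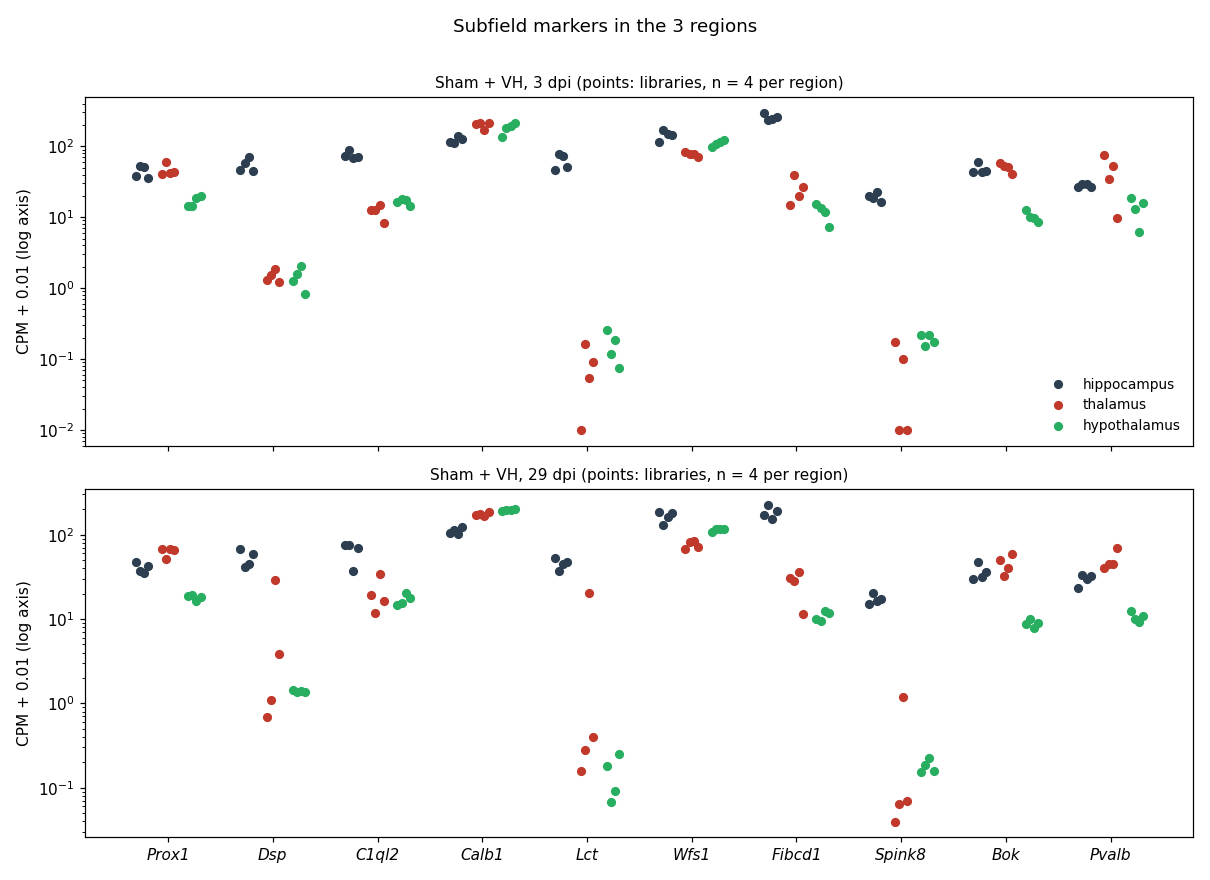
Markers in Sham + VH libraries of the 3 regions at 3 dpi (top) and 29 dpi (bottom), as CPM + 0.01 on a log axis, with 1 point per library. Dsp, Spink8 and Lct stand far above thalamus and hypothalamus, Calb1 stands below thalamus, and at 29 dpi a single thalamic library rises to 28.9 CPM of Dsp.

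At 29 dpi the order of the regions was the same for most markers, but 2 thalamic libraries stood apart, which were singled out after their values were seen. Against thalamus 9 of the 10 markers were called (39.3% of all genes), 6 higher (19.9%) and 3 lower (19.4%) in hippocampus. Against hypothalamus all 10 were called (45% of all genes), 9 higher (22.2%) and 1 lower (22.8%). Prox1 (−0.63 ± 0.12), Calb1 (−0.65 ± 0.12) and Pvalb (−0.77 ± 0.24) were the lower 3 against thalamus. On a CPM scale set over the 16 thalamic libraries at 29 dpi, Sham + VH replicate 3 of the thalamus stood out. Dsp there measured 29.3 CPM, Lct 20.6 CPM, C1ql2 34.97 CPM and Spink8 1.19 CPM. On the same scale, TBI + CD replicate 4 of the thalamus held Dsp at 18.7 CPM, Lct at 11.3 CPM, C1ql2 at 27.9 CPM and Spink8 at 0.638 CPM. The other 14 thalamic libraries ranged from 0.684 to 3.83 CPM for Dsp, from 0 to 0.392 CPM for Lct and from 0 to 0.198 CPM for Spink8.

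On the scale of the 3 regions, and measured against the mean of the hippocampal Sham + VH libraries at 29 dpi, the first of these thalamic libraries held 54.7% of the Dsp level, 53.5% of C1ql2 and 44.4% of Lct, but 19.4% of Fibcd1 and 6.80% of Spink8. The second held 35.2% of Dsp, 43.1% of C1ql2 and 24.7% of Lct, 9.68% of Fibcd1 and 3.69% of Spink8. The CA1 marker Wfs1 stood at 50.5% in the first and 45.9% in the second. Wfs1, Fibcd1 and Prox1 in both libraries, and Calb1 in the first, lay within the range of the other 14. Prox1 measured 68.2 and 48.7 CPM on the thalamic scale, against 46.4 to 70.9 CPM in the others. Dsp, C1ql2, Lct and Spink8 lay above that range in both. Among other genes of granule cells, Tdo2 and Trpc6 lay above it in both, and Dock10, Plk5, Glis3 and Sema5a in the first only. C1ql3, Stxbp6, Marcks, Npy1r, Tiam1 and Pdzd2 lay above it in neither. On the thalamic scale TBI + CD replicate 4 also had the highest Pvalb of the 16 libraries (92.9 CPM, at most 69.0 in the others) and the lowest Calb1 (128 CPM, at least 164 in the others). Neurod2 and Neurod6, transcription factors of forebrain excitatory neurons, moved with them, at 30.7 and 16.8 CPM in the first library and 17.4 and 11.5 CPM in the second, against 0.560 to 3.56 and 0.382 to 1.45 CPM in the other 14, on the thalamic scale. In TBI + CD replicate 4 glial genes stood apart as well, with Gfap at 738 CPM (at most 271 in the other 14), Lyz2 at 41.5 CPM (at most 11.9), C1qa at 163 CPM (at most 68.3) and Cd68 at 26.9 CPM (at most 11.3). In Sham + VH replicate 3 these 4 genes lay within the range of the other 14, at 180 CPM for Gfap and 7.80 CPM for Lyz2. The part of hippocampal tissue in these values was not tested. Without Sham + VH replicate 3 the log2 fold change against thalamus at 29 dpi was 4.75 ± 0.55 for Dsp, in place of 2.66 ± 0.57, and 7.38 ± 0.80 for Lct, in place of 3.20 ± 0.71. For Spink8 it was 8.35 ± 0.51 in place of 5.86 ± 0.47, and the number of markers called stayed at 9. Bok, with −0.35 ± 0.18 against thalamus, was called without replicate 2 of hippocampal (−0.51 ± 0.19) or of thalamic Sham + VH (−0.50 ± 0.18).

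The main comparison asked how injury moved the markers in the hippocampus at 3 dpi. With both drug arms averaged, Dsp, Prox1 and Calb1 fell, and the other 7 markers did not pass the test. The 3 that fell are counted here as granule cell markers, although Prox1 and Calb1 were not called higher in hippocampus than in thalamus. The granule cell markers Lct and C1ql2 were not called. A list of 12 other granule cell genes gave 7 lower, and Marcks was higher. None of the 3 CA1 markers and none of 6 other CA1 genes was called, while some genes of CA2, CA3 and interneurons fell. The lists were not tested against each other. Among all 16756 genes tested 15.8% were called, 2.47% lower, and 2229 genes were called higher. With libraries scaled to general neuronal genes 4197 were called higher and 70 lower, against 2229 and 414. In bulk tissue fewer cells of a type and less RNA per cell cannot be told apart.

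Among the granule cell markers, Dsp changed most. In Sham + VH it measured 44.0, 54.9, 65.5 and 42.4 CPM, in Sham + CD 50.9, 50.2, 47.5 and 86.4 CPM, in TBI + VH 22.7, 41.3, 25.7 and 38.1 CPM, and in TBI + CD 33.4, 29.8, 16.7 and 38.1 CPM. All 8 injured libraries lay below all 8 sham libraries, although the highest injured value, 41.3 CPM, came close to the lowest sham value, 42.4 CPM. The injured mean was 55.6% of the sham mean, with a log2 fold change of −0.85 ± 0.17 (SE, FDR = 0.00107 by edgeR).

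Prox1 measured 36.1, 48.9, 47.9 and 33.2 CPM in Sham + VH and 48.8, 42.3, 43.4 and 66.1 CPM in Sham + CD. In TBI + VH it measured 20.7, 36.1, 31.4 and 38.4 CPM, and in TBI + CD 34.6, 23.0, 28.8 and 30.7 CPM. The ranges overlapped, with 5 of the 8 injured libraries below every sham library. The injured mean was 66.4% of the sham mean (log2 fold change −0.59 ± 0.13, FDR = 0.00205 by edgeR).

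Calb1 was the most even of the 3. It measured 109, 105, 132 and 121 CPM in Sham + VH, 109, 114, 129 and 128 CPM in Sham + CD, 83.4, 95.9, 94.9 and 100.1 CPM in TBI + VH, and 80.8, 84.0, 72.3 and 88.3 CPM in TBI + CD. Every injured library was below every sham library. The injured mean was 73.9% of the sham mean, a smaller fall than that of Dsp with a smaller error (−0.44 ± 0.06, FDR = 1.31e-05 by edgeR). With libraries scaled to general neuronal genes it was −0.24 ± 0.06 and missed the fold change threshold.

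The other granule cell markers went separate ways. Lct had a median of 62.4 CPM (43.3 to 109) in the 8 sham libraries and 49.4 CPM (14.6 to 60.8) in the 8 injured ones, and its log2 fold change of −0.51 ± 0.22 did not pass (FDR = 0.0878 by edgeR). Its lowest value, 14.6 CPM, was in TBI + CD replicate 3, and it passed once TBI + CD replicate 1 was left out (−0.61 ± 0.23, FDR = 0.0448 by edgeR). C1ql2 measured 69.3, 82.1, 63.2 and 66.4 CPM in Sham + VH, 77.2, 69.0, 54.7 and 95.7 CPM in Sham + CD, 54.4, 73.3, 72.1 and 70.7 CPM in TBI + VH and 77.0, 60.3, 81.5 and 59.98 CPM in TBI + CD. The groups overlapped throughout and the log2 fold change was −0.07 ± 0.10 (FDR = 0.619 by edgeR), so that C1ql2, a gene of the same cells, held 95.1% of its sham mean where Dsp held 55.6%.

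**Figure D2:**
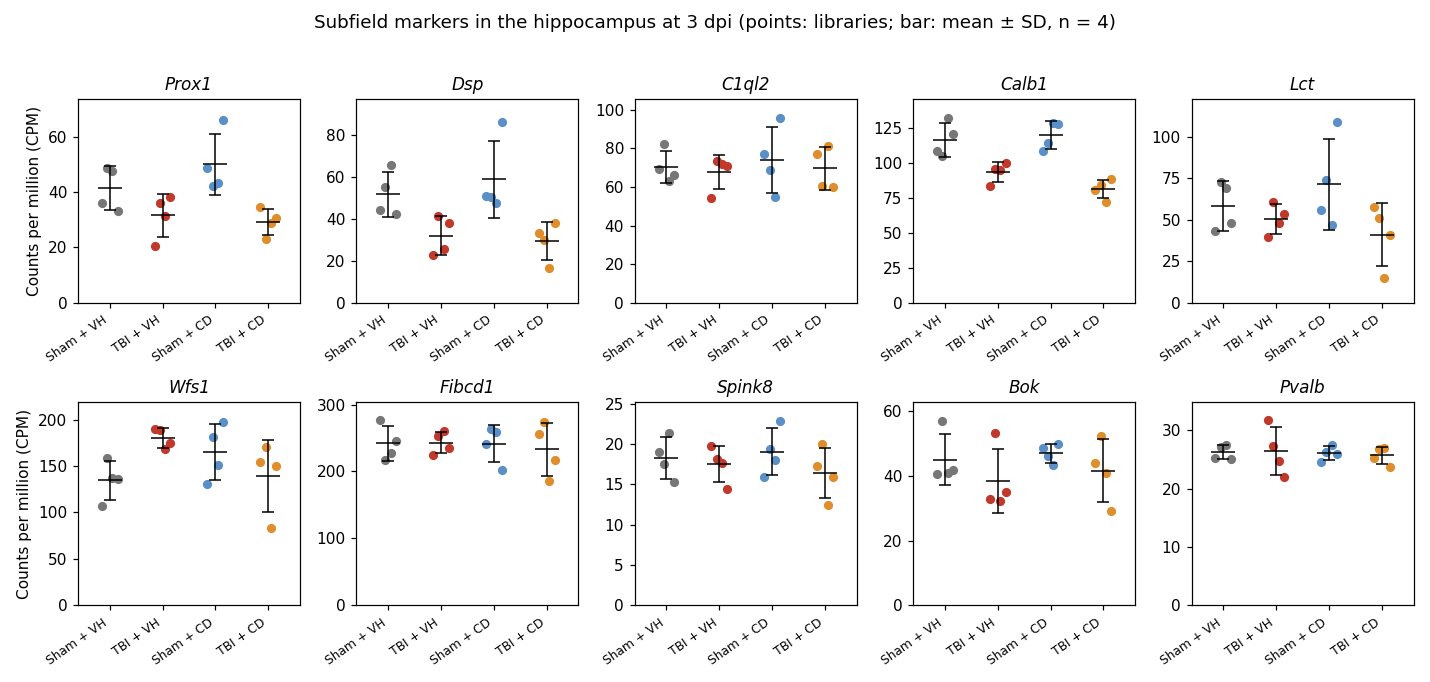
Level of each marker in the hippocampus at 3 dpi in CPM (axes start at 0), with 1 point per library and the mean ± SD of each group (n = 4). The 8 injured libraries lie below the 8 sham libraries for Dsp and Calb1, and the groups overlap for the other 8 markers. The share of all genes that separate in this way was not counted.

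None of the CA1 markers passed the test. Wfs1 had a median of 144 CPM (107 to 197) in sham and 170 CPM (83.0 to 190.3) in injured libraries, with a log2 fold change of 0.09 ± 0.12. Fibcd1 had a median of 243 CPM in sham and 244 CPM in injured libraries (−0.02 ± 0.08), and Spink8 of 18.5 and 17.5 CPM (−0.14 ± 0.10). FDR was 0.295 or more for these 3 genes by edgeR. Bok, the CA3 marker, had a median of 44.8 CPM in sham and 37.9 CPM in injured libraries (−0.21 ± 0.12, FDR = 0.188 by edgeR). Pvalb had medians of 26.1 CPM in both (−0.01 ± 0.06). None of these 5 genes separated injured from sham libraries.

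Lists of other genes of the same neuron types were examined beside the markers. Of 12 other granule cell genes, 7 fell, 1 rose and 4 were not called, and their median log2 fold change was −0.36, where the median of all genes was −0.02. The largest changes were in Tdo2, an enzyme of tryptophan breakdown (−1.11 ± 0.15), Trpc6, a cation channel (−0.47 ± 0.09), and Npy1r, a neuropeptide Y receptor (−0.47 ± 0.05). The gene that rose was Marcks, a protein kinase C substrate at the membrane (0.41 ± 0.08), which was named after its value was seen. In the list of the C1q-like family, to which C1ql2 belongs, C1ql1 rose (0.45 ± 0.09) and C1ql3 had −0.32 ± 0.06, which missed the fold change threshold.

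For neurons of the other subfields the counts stand beside the 15.8% of all genes called, and the lists were not tested against each other. None of 6 other CA1 genes was called (median −0.03), and the largest value among them was that of Mpped1, −0.12 ± 0.06. Of 7 CA3 genes 1 fell, St18 (−0.39 ± 0.08), with a median of −0.17. Of 7 CA2 genes 2 fell, Sostdc1 (−1.09 ± 0.42) and Pcp4, a calmodulin-binding peptide (−0.37 ± 0.08). Cacng5, also of that list, rose (0.64 ± 0.15). The level of choroid plexus genes varied widely among the Sham + VH libraries, as given below. The part of choroid plexus RNA in the value of Sostdc1 was not tested. Of 6 genes of mossy cells, the excitatory neurons of the dentate hilus, 2 rose, Glipr1 (0.96 ± 0.19) and Csf2rb2 (0.59 ± 0.13). The part of RNA from non-neuronal cells in these 2 values was not tested. Of 14 interneuron genes 2 fell, Cort, the neuropeptide cortistatin (−0.79 ± 0.17), and Erbb4, a neuregulin receptor (−0.32 ± 0.10).

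None of 12 general neuronal genes was called, although all 12 had negative values with a median of −0.18, and Snap25, a synaptic vesicle fusion protein, had the largest, −0.28 ± 0.05. Their summed level was 10139 to 10525 CPM in Sham + VH, 10794 to 11118 CPM in Sham + CD, 8843 to 9736 CPM in TBI + VH and 8856 to 10216 CPM in TBI + CD. When the libraries were scaled to these genes, each marker's value rose by about 0.20, and Dsp (−0.65 ± 0.17, FDR = 0.00421 by edgeR) and Prox1 (−0.38 ± 0.14, FDR = 0.0272) were still called. Calb1, not called on that scale, had FDR = 0.00284. Of 9 genes of forebrain excitatory neurons 2 fell, the glutamate receptor subunits Grin2b (−0.47 ± 0.11) and Grin2a (−0.45 ± 0.12).

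Genes related to the markers by function were counted too, where 2229 of all 16756 genes tested were called higher and 2.47% lower. Of 10 genes of calcium-binding protein families Calb1 fell, S100a10 rose (1.41 ± 0.13), and the other 8, Pvalb among them, were not called. Of 11 BCL2 family genes 5 rose, with Pmaip1 (1.01 ± 0.27), Bcl2l11 (0.54 ± 0.11) and Bak1 (0.46 ± 0.07), all promoters of apoptosis, giving the largest values, while Bok was not called. Of 10 genes of endoplasmic reticulum stress, Wfs1 included, the transcription factor Atf3 rose (2.37 ± 0.29) and no other was called.

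Markers of non-neuronal cells moved with injury in the same libraries, where 15.8% of all genes tested were called. All 9 microglia and macrophage genes rose, with Lyz2 (3.93 ± 0.29) first, and their summed level was 242 to 272 CPM in the sham libraries and 556 to 1043 CPM in the injured ones. Of 8 astrocyte genes 6 rose, with Gfap (3.63 ± 0.13) first, and of 8 oligodendrocyte genes 4 rose, with Cldn11 (0.88 ± 0.14) first. No endothelial gene of 6 was called. The part of these cells' RNA in the values of the markers was not tested. None of 8 thalamic and 1 of 10 neocortical genes, Foxp2 (−0.64 ± 0.23), was called.

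**Figure D3:**
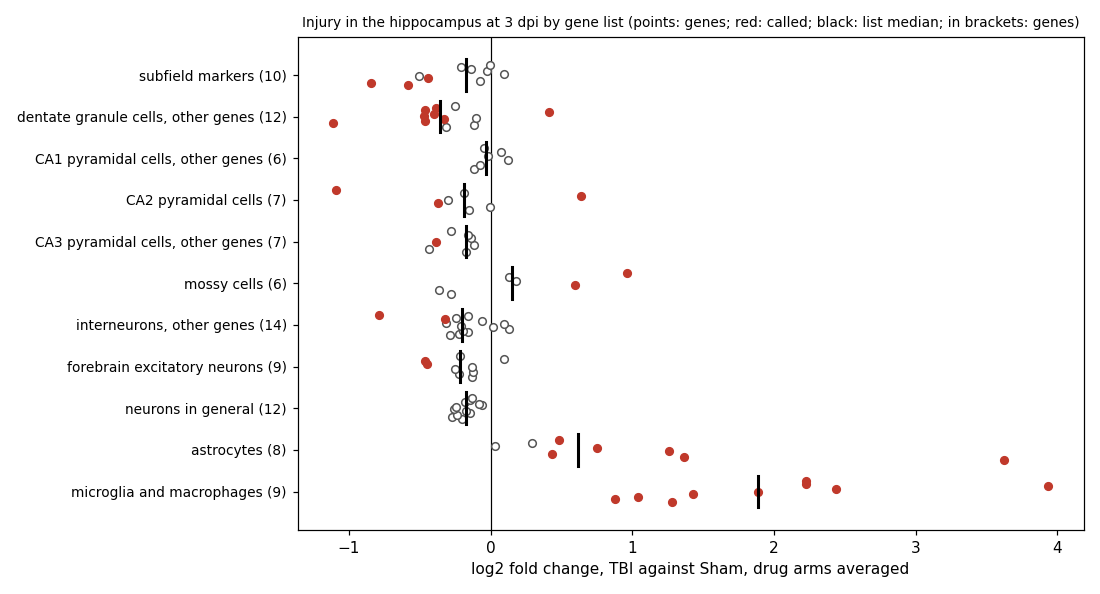
Log2 fold change of TBI against Sham in the hippocampus at 3 dpi with both drug arms averaged, with 1 point per gene, called genes in red and the list median as a black bar. The list of other granule cell genes has a median of −0.36 and that of other CA1 genes −0.03, and the microglial and astrocytic lists lie to the right of 0.

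The injury comparison was then made within each drug arm. In TBI + VH against Sham + VH no marker of the 10 was called by edgeR (10.7% of all genes were), although 4 had an unadjusted p under 0.05. Scaled to general neuronal genes, 2547 genes were called higher and 161 lower in this arm, against 1507 and 289. DESeq2 called Calb1 (−0.33 ± 0.09, FDR = 0.00246), and edgeR with the replicate number as a block called Dsp (−0.75 ± 0.23, FDR = 0.044). Calb1 had −0.32 ± 0.08 with FDR = 0.0127 by edgeR and just missed the fold change threshold. Dsp had −0.70 ± 0.25 (FDR = 0.0741), Prox1 −0.39 ± 0.18 (FDR = 0.199) and Wfs1 0.43 ± 0.17 (FDR = 0.126). Among 16 fits with 1 library left out, Calb1 was called in 5 (without Sham + VH replicate 1 or 2, or TBI + VH replicate 2, 3 or 4). Dsp was called in 3 (without TBI + VH replicate 2, Sham + CD replicate 4 or TBI + CD replicate 3), the first at −0.84 ± 0.26, and Wfs1 in 1 (without TBI + CD replicate 3). Wfs1 measured 107, 158, 138 and 136 CPM in Sham + VH and 190.3, 189, 168 and 175 CPM in TBI + VH. These 2 groups did not overlap, yet Sham + CD reached 197 CPM.

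In TBI + CD against Sham + CD, Dsp (−0.998 ± 0.25, FDR = 0.00504), Prox1 (−0.78 ± 0.19, FDR = 0.00378) and Calb1 (−0.56 ± 0.08, FDR = 6.77e-05 by edgeR) fell, where 20.1% of all genes were called and 5.67% were called lower. Scaled to general neuronal genes, 5173 genes were called higher and 136 lower in this arm, against 2410 and 950. Lct had −0.81 ± 0.32 (FDR = 0.0614). It passed without TBI + CD replicate 1 (−1.01 ± 0.34, FDR = 0.0321) and without Sham + CD replicate 3 (−0.96, FDR = 0.0377), whose values were the highest injured and the lowest sham value of that arm. Of the 12 other granule cell genes 7 fell and 1 rose in this arm, and 2 fell and 1 rose in the vehicle arm, where 10.7% of all genes were called. The share of genes called thus differed between the arms, and the difference between these counts was not tested.

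The arms were compared by the interaction of injury with candesartan, which asks whether the drug altered the response to injury. No marker was called by edgeR, nor any gene (2196 had an unadjusted p under 0.05), while DESeq2 called 322 genes and none of the markers. The interaction was −0.39 ± 0.26 for Prox1 (FDR = 0.568), −0.30 ± 0.35 for Dsp (FDR = 0.768), −0.24 ± 0.12 for Calb1 (FDR = 0.385) and −0.67 ± 0.24 for Wfs1 (FDR = 0.239 by edgeR). The falls called in the CD arm and not in the VH arm were therefore not shown to differ between the arms. Wfs1 had the largest interaction of the 10, with TBI + CD at 154, 171, 83.0 and 151 CPM and Sham + CD at 131, 181, 151 and 197 CPM, which overlapped. The other 6 ranged from −0.59 (Lct) to 0.06 (Bok).

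**Figure D4:**
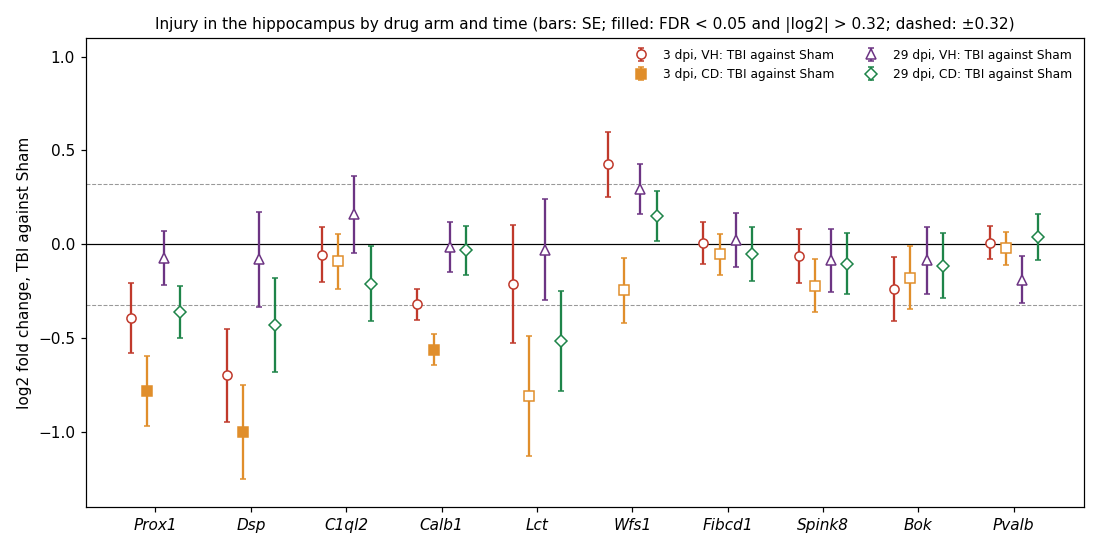
Log2 fold change of TBI against Sham in the hippocampus for each marker, by drug arm and time, with SE bars, filled symbols for called values and dashed lines at ±0.32. At 3 dpi Prox1, Dsp and Calb1 are filled in the CD arm (−0.78, −0.998 and −0.56), and no marker is filled in the VH arm or at 29 dpi.

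Candesartan itself moved no marker past the test. In Sham + CD against Sham + VH, where 1.5% of all genes were called, no marker had an unadjusted p under 0.05, and the values were 0.27 ± 0.18 for Prox1, 0.30 ± 0.17 for Wfs1 and 0.29 ± 0.31 for Lct. In TBI + CD against TBI + VH no gene was called, nor by DESeq2; 732 genes had an unadjusted p under 0.05 by edgeR and 2 of these were markers, Calb1 (−0.20 ± 0.08) and Wfs1 (−0.37 ± 0.17), both with FDR = 0.999 by edgeR. Choroid plexus genes differed between the sham groups. Their summed level was 6672, 4335, 205 and 4630 CPM in Sham + VH and 60.9 to 118 CPM in Sham + CD, and 9 of the 10 were lower in Sham + CD. Calls over all genes between the sham groups depended on single libraries, with 0 genes without Sham + VH replicate 4 and 553 without Sham + VH replicate 3. In the vehicle arm all 10 choroid plexus genes were lower in TBI + VH, whose sums were 23.0 to 168 CPM. With a choroid plexus score as covariate the injury values over both arms were −0.80 ± 0.20 for Dsp (FDR = 0.00577), −0.53 ± 0.15 for Prox1 (FDR = 0.0124) and −0.45 ± 0.07 for Calb1 (FDR = 0.00011 by edgeR).

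At 29 dpi no marker was called for injury over both arms, where 1.62% of 16832 genes were called, and 2 markers had an unadjusted p under 0.05. Dsp measured 64.8, 38.7, 41.9 and 55.7 CPM in Sham + VH, 47.9, 65.3, 57.2 and 63.0 CPM in Sham + CD, 47.3, 27.6, 66.4 and 49.3 CPM in TBI + VH and 58.3, 37.0, 54.9 and 24.7 CPM in TBI + CD. The groups overlapped, with the 2 lowest values both in injured libraries, and the log2 fold change was −0.26 ± 0.18 (FDR = 0.687 by edgeR).

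Prox1 measured 45.8, 35.3, 33.1 and 40.4 CPM in Sham + VH, 51.4, 50.5, 44.0 and 43.2 CPM in Sham + CD, 42.6, 28.5, 40.9 and 34.7 CPM in TBI + VH and 46.8, 30.0, 36.9 and 33.1 CPM in TBI + CD. Injured and sham libraries overlapped (−0.22 ± 0.10, FDR = 0.425 by edgeR). Calb1 had a median of 108 CPM (97.2 to 119) in sham and 109 CPM (67.3 to 125) in injured libraries, which leaves no separation (−0.02 ± 0.09).

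Wfs1 had a median of 165 CPM (124 to 223) in sham and 194 CPM (158 to 241) in injured libraries (0.22 ± 0.09, FDR = 0.37 by edgeR). Lct had −0.27 ± 0.19, C1ql2 −0.02 ± 0.14 and Fibcd1 −0.01 ± 0.10. Spink8, Bok and Pvalb ranged from 10.7 to 19.2, from 24.1 to 47.8 and from 21.3 to 33.7 CPM over the 16 libraries, with injured and sham libraries mixed. For injury over both arms 1.62% of all genes were called. None of the 12 other granule cell genes was called there (median −0.18), and none of 6 other CA1 genes (median 0.07). In the same comparison 5 of 9 microglial and 2 of 8 astrocyte genes were still higher. Within the arms no marker was called either (0.529% of all genes in the VH arm and 0.356% in the CD arm). The values in the CD arm were −0.36 ± 0.14 for Prox1, −0.43 ± 0.25 for Dsp and −0.52 ± 0.27 for Lct. Candesartan in sham and in injured mice and its interaction with injury gave no called gene at 29 dpi by edgeR (810, 893 and 890 genes with an unadjusted p under 0.05), and DESeq2 called 2, 4 and 2 genes, none of them a marker.

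**Figure D5:**
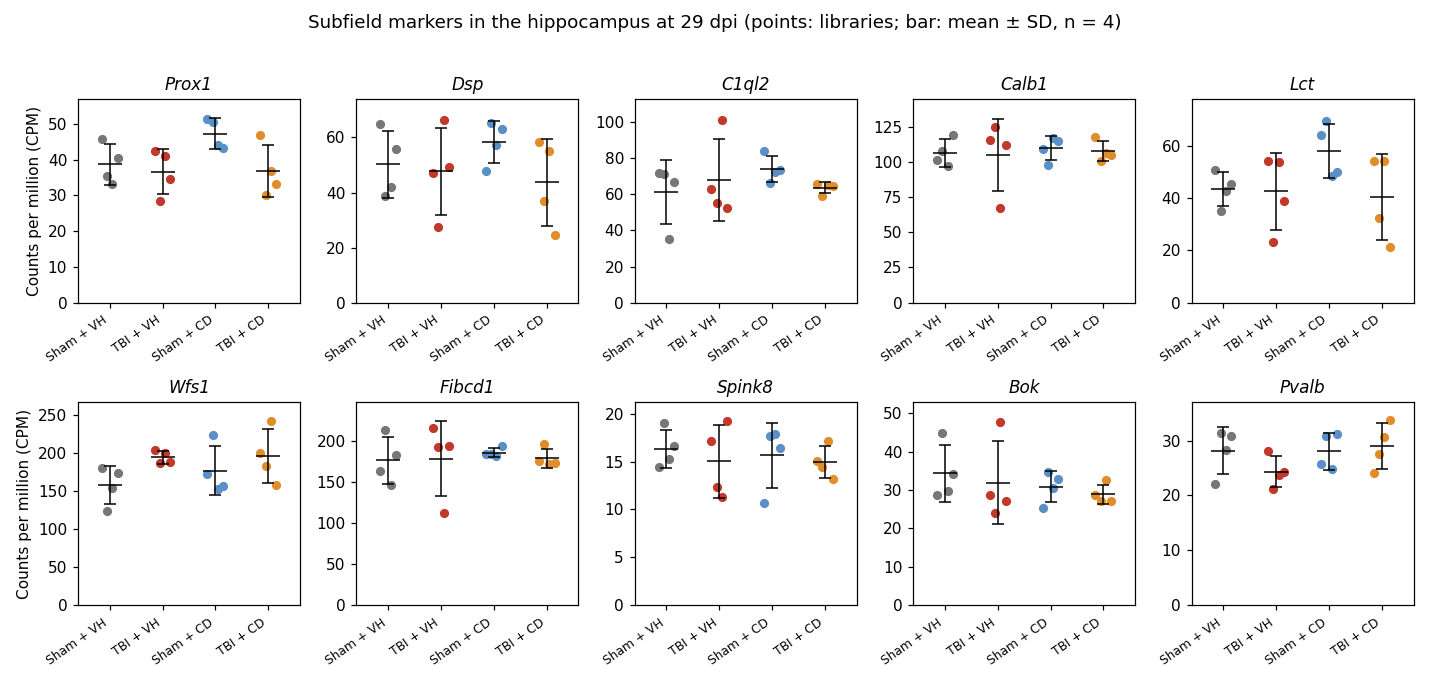
Level of each marker in the hippocampus at 29 dpi in CPM (axes start at 0), with 1 point per library and the mean ± SD of each group (n = 4). Injured and sham libraries overlap for all 10 markers, and the TBI + VH library with 67.3 CPM of Calb1 and 101 CPM of C1ql2 stands apart.

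The effect of injury at 3 dpi was tested against that at 29 dpi. Only Calb1 differed among the markers, with a difference of −0.41 ± 0.12 on the log2 scale (FDR = 0.019 by edgeR), where 8.39% of 17181 genes were called and 0.477% were lower. Its fall was thus larger at 3 dpi than at 29 dpi. Dsp (−0.58 ± 0.27, FDR = 0.176) and Prox1 (−0.36 ± 0.18, FDR = 0.21) did not pass, so a recovery of these 2 genes between the times was not shown. The times came from separate cohorts with different delivery of the drug or vehicle, and the cohort cannot be told apart from the time.

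The effect of injury in the hippocampus at 3 dpi was also tested against the mean effect in thalamus and hypothalamus. Dsp (−0.89 ± 0.23, FDR = 0.00313), Prox1 (−0.61 ± 0.15, FDR = 0.00185) and Calb1 (−0.54 ± 0.10, FDR = 2.86e-05 by edgeR) were lower in the hippocampus, where 12% of 17788 genes were called and 2.07% were lower. Of the other granule cell genes 5 of 12 were lower in this test. Prox1 and Calb1 were also expressed in the other regions. The median of Prox1 in thalamus was 47.3 CPM in sham and 46.9 CPM in injured libraries, and that of Calb1 187 and 191 CPM. In hypothalamus the medians of Calb1 were 206 CPM in sham and 211 CPM in injured libraries.

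Within thalamus and hypothalamus 8 markers were abundant enough to be tested, all but Spink8 and Lct. None was called for injury at 3 dpi (0.907% of all genes in thalamus and 0.0177% in hypothalamus), none for injury at 29 dpi (0% and 0.00583%), and none for candesartan, by edgeR or DESeq2. At an unadjusted p under 0.05 stood 1 marker in thalamus at 3 dpi and 2 at 29 dpi for injury, and none in hypothalamus. In thalamus at 29 dpi the lowest FDR was that of Prox1, with medians of 65.5 CPM in sham and 51.5 CPM in injured libraries and 4 of 8 injured libraries below the sham range. Its log2 fold change was −0.30 ± 0.06 with FDR = 0.277 by edgeR. That of C1ql2 was larger with a larger error, −0.65 ± 0.30 (FDR = 0.738).

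The markers were also compared by how they varied among the 16 hippocampal libraries of a time after the group means were removed. These correlations are descriptions over libraries that share a depth scale and a dissection. Dsp and Lct varied together at both times (r = 0.85 at 3 dpi and 0.87 at 29 dpi), as did Prox1 and Dsp (0.70 and 0.72). Wfs1, a CA1 marker, varied with Lct (0.89 and 0.72) and with Dsp (0.67 and 0.63). Calb1 did not keep 1 partner, since its correlation with Dsp was 0.64 at 3 dpi and −0.34 at 29 dpi, and that with Fibcd1 0.15 and 0.82. At 3 dpi TBI + CD replicate 3 was low in Dsp (16.7 CPM), Lct (14.6 CPM) and Wfs1 (83.0 CPM) together. At 29 dpi TBI + VH replicate 3 was high in C1ql2 (101 CPM) and low in Calb1 (67.3 CPM) and Fibcd1 (112 CPM).

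The balance of the subfields in each library was summarised as the mean log2 CPM of the 5 granule cell markers minus that of the 3 CA1 markers. At 3 dpi it was −0.42 ± 0.15 (SD, n = 4) in Sham + VH, −0.38 ± 0.27 in Sham + CD, −0.88 ± 0.31 in TBI + VH and −0.85 ± 0.19 in TBI + CD. At 29 dpi it was −0.47 ± 0.19, −0.26 ± 0.15, −0.56 ± 0.38 and −0.62 ± 0.22 in the same order. The measure contains Dsp, Prox1 and Calb1, whose values are given above, and is not independent of them.

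Finally, genes most like the markers were sought among 14733 genes by the mean of their correlations of log2 CPM over the 16 hippocampal libraries at 3 dpi and the 16 at 29 dpi. Group differences add to these correlations. For Dsp these were Npnt (0.90), Slc26a10 (0.89) and Fam163b (0.87), and for Lct Adcy1 (0.92), Sertad4 (0.90) and Pla2g2f (0.89). For Prox1 they were AK083547 (0.89), Sema5a (0.89) and Pde4dip (0.86), of which Sema5a is on the list of other granule cell genes. For Calb1 they were Col25a1 (0.86), Syt10 (0.86) and Tdo2 (0.84), the last of which is on that list too. The closest gene was Galnt9 for Fibcd1 (0.78), Ehd1 for C1ql2 (0.78), B3galt5 for Spink8 (0.77), Napa for Bok (0.83) and Dctn2 for Pvalb (0.70).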

How the data were processed

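RNA was sequenced as stranded, poly(A)-selected libraries of 4 samples per group. Per the paper's methods and the submitters' processing notes, reads were aligned to mm10 with MapSplice and the authors deposited raw gene counts from HTSeq 0.9.1 in a table per time point, with 32594 rows. Total counts were 19683802 to 27452743 in hippocampus at 3 dpi and 6663629 to 38589791 at 29 dpi; precision follows from these and from 4 libraries a group. Symbols were stripped of spaces. Genes passing filterByExpr were tested with edgeR 4.0.16 (TMM factors, quasi-likelihood test, Benjamini-Hochberg FDR over all genes tested) in 1 model of the 4 groups per region and time, and in joint models for regions and for times. CPM are on the TMM scale, and log2 CPM used a prior count of 2. DESeq2 1.42.0, RLE factors, no filter, FDR alone, the compared groups alone, a replicate block, a choroid plexus covariate, neuronal scaling and leaving out each library were alternatives. On data simulated for injury in hippocampus at 3 dpi, 77.3%, 91% and 100% of genes changed by 0.5, 1 and 2 log2 units were recovered among 16603 genes. No 2 libraries of a group agreed within counting noise. Markers and gene lists were chosen with earlier results of these data known. The 10 markers were to be named in each comparison, with the 3 most changed members of each list; in comparisons with few or no calls only some of these values are printed.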

Additional observations from a re-analysis of the deposited data

Results flagged for a closer look

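Single libraries far from the other 3 of their group were sought for each marker in every region and time, as a gap to the nearest library that exceeds Dixon's critical value when divided by the range of the group. This held for 26 of 240 groups of 4 libraries, where chance would give about 12 if the groups were independent and normally distributed. The markers share their libraries, so the groups are not independent and the excess was not tested.

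In hippocampus at 3 dpi these were Bok in Sham + VH replicate 2 (56.9 CPM) and TBI + VH replicate 2 (53.2 CPM), C1ql2 in TBI + VH replicate 1 (54.4 CPM) and Dsp in Sham + CD replicate 4 (86.4 CPM). At 29 dpi they were C1ql2 in Sham + VH replicate 3 (35.1 CPM) and TBI + CD replicate 2 (59.0 CPM), and Fibcd1 in TBI + CD replicate 2 (196 CPM).

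In thalamus at 3 dpi they were Prox1 in Sham + VH replicate 2 (59.2 CPM) and Sham + CD replicate 1 (41.3 CPM), Calb1 in Sham + VH replicate 3 (169 CPM) and Wfs1 in TBI + VH replicate 3 (95.0 CPM). At 29 dpi Sham + VH replicate 3 was far above its group for Dsp (29.3 CPM), Lct (20.6 CPM) and Spink8 (1.19 CPM), and TBI + CD replicate 4 for Dsp (18.7 CPM), Lct (11.3 CPM) and Spink8 (0.638 CPM). The others there were Prox1 in Sham + VH replicate 2 (51.4 CPM), Spink8 in Sham + CD replicate 1 (0.0404 CPM, which is 1 read where the other 3 libraries had 0) and Fibcd1 in TBI + CD replicate 2 (36.3 CPM).

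In hypothalamus they were Wfs1 in TBI + VH replicate 2 (127 CPM) and Prox1 in Sham + CD replicate 2 (15.01 CPM) at 3 dpi, and Wfs1 in Sham + VH replicate 1 (116 CPM) and TBI + VH replicate 2 (130.0 CPM), C1ql2 in TBI + VH replicate 2 (15.6 CPM) and Prox1 in Sham + CD replicate 3 (13.02 CPM) at 29 dpi.

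The effect of injury differed between groups of libraries in 4 tests of the difference itself. Against the mean of thalamus and hypothalamus at 3 dpi, that in hippocampus was lower for Prox1 (−0.61), Dsp (−0.89) and Calb1 (−0.54), and Calb1 was lower at 3 dpi than at 29 dpi (−0.41). All 4 calls held with each library left out in turn.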

How the results depend on the processing

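The number of markers called moved by over 1.5 times in TBI + VH against Sham + VH at 3 dpi. There it was 0, and 1 with DESeq2, FDR alone, RLE factors or no filter (Calb1), 1 with the replicate block (Dsp, −0.75 ± 0.23), 1 with neuronal scaling (Wfs1, 0.58 ± 0.17) and 2 with the compared groups alone (Dsp and Wfs1); the cause was not tested. Apart from libraries left out, 2 other counts of 3 changed, to 2 for injury over both arms at 3 dpi with neuronal scaling (Calb1 lost, −0.24) and to 4 in TBI + CD against Sham + CD at 3 dpi with the choroid plexus covariate (Lct gained, −0.90 ± 0.32). With each library left out, it was 0 to 2 there, 3 to 4 for injury over both arms at 3 dpi, 3 to 4 in TBI + CD against Sham + CD, 7 to 8 and 9 to 10 against thalamus at 3 and 29 dpi, and 9 to 10 against hypothalamus at 3 dpi. Over both arms at 3 dpi, leaving out each library gave −0.92 to −0.72 for Dsp, −0.63 to −0.50 for Prox1 and −0.46 to −0.40 for Calb1, called each time. Of 6474 values of single markers, 26 crossed the threshold, 399 changed sign and none of those was called.

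Replicate numbers were not taken to pair the libraries, since no label says that they do. In each region and time some same-numbered libraries had a negative correlation of their deviations (lowest −0.152 in hippocampus at 3 dpi and −0.369 at 29 dpi). Such pairs cannot exclude a shared block. Of 16 libraries, 6 at each time in hippocampus, but 10 in thalamus at 3 dpi, correlated best with a library of their own number, and the median same-numbered correlation there was 0.129, against −0.03 for other numbers. With them as a replicate block, injury at 3 dpi called the same 3 markers, Dsp at −0.87.

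Counts of all genes moved more. Injury over both arms at 3 dpi gave 2643 genes, 6071 with FDR alone and 4267 with neuronal scaling. TBI + CD against Sham + CD gave 3360, and 5570 and 5309 with these. TBI + VH against Sham + VH gave 1796, 623 with the covariate and 2708 with neuronal scaling. Sham + CD against Sham + VH gave 251, 448 with DESeq2, 384 with neuronal scaling and 0 with the covariate. The interaction at 3 dpi gave 0, 322 with DESeq2, 118 with no filter and 106 with the replicate block. Injury in hippocampus against the other regions gave 2138, and 4502 with FDR alone. At 29 dpi injury over both arms gave 273, and 464 with neuronal scaling; TBI + CD against Sham + CD gave 60, 172 with DESeq2, 113 with the compared groups alone and 157 with neuronal scaling; TBI + VH against Sham + VH gave 89, 140 with DESeq2 and 42 with the compared groups alone. In thalamus at 29 dpi injury gave 0, and 17 with DESeq2, and in hypothalamus 3 at 3 dpi, and 16 with DESeq2. The other comparisons that moved stayed at 4 genes or fewer.

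With each library left out in turn, the count of genes ranged from 0 to 553 for Sham + CD against Sham + VH at 3 dpi, from 0 to 431 for the interaction at 3 dpi, from 177 to 350 for injury at 29 dpi, from 25 to 109 for TBI + CD against Sham + CD at 29 dpi, and from 0 to 11 for injury in thalamus at 29 dpi.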
